A study of Mus musculus with 6 samples.

Results

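The genes that carry a cell from G2 phase into mitosis were examined in P21 mouse retinae that lacked Rb1 and p107 (DKO) or Rb1, p107 and Hells (TKO). A named list of 10 genes was followed, the cyclins Ccna2, Ccnb1, Ccnb2 and Ccnf, the kinases Cdk1, Plk1, Wee1 and Pkmyt1, and the phosphatases Cdc25b and Cdc25c. All 10 symbols were found among the 24062 genes of the count table, and all 10 had a summed count of at least 10, as did 16904 genes in all. RNA was sequenced from 3 DKO and 3 TKO retinae at postnatal day 21 on a background labelled C57BL/6, which the study's methods give as C57BL/6N. Every retina of either group carried Chx10-Cre, the floxed Rb1 allele on both chromosomes and a deletion of p107 in every cell, and the TKO retinae carried the floxed Hells allele on both chromosomes in addition. Chx10-Cre is active in retinal progenitors in a mosaic pattern, so each retina was a mixture of recombined and unrecombined cells. A wild-type or Hells-only group was not analysed here, and the labels do not say whether the retinae of a group came from different litters, so the p-values measure the spread between these retinae.

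Mitosis begins when CDK1, bound to cyclin B, is switched on. WEE1 and the membrane-bound kinase PKMYT1 (also called MYT1) keep CDK1 off by phosphorylating it, the CDC25 phosphatases remove that phosphorylation, and PLK1 pushes the balance toward entry by activating CDC25C and marking WEE1 for destruction. Cyclin A2 acts with CDK2 and CDK1 in S phase and G2, and cyclin F is the substrate-binding subunit of a ubiquitin ligase that helps to limit replication factors. Most of these genes are silent in resting cells and are transcribed in G2 through promoters that often hold CCAAT boxes and a short element called the CHR, which recruits the MuvB complex. The retina of a normal mouse has largely stopped dividing by the third postnatal week, while loss of Rb1 and p107 leaves cells dividing ectopically. Cell culture work by others had placed HELLS at the promoters of the human orthologues of Ccnb1 and Ccna2, which gives the question for this comparison.

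Promoter sequences are shown because these genes are known for shared promoter elements and because most of them moved together. RefSeq windows from 250 bases before to 50 bases after the transcription start (GRCm38.p6) were found for 6 of the 10 genes, and none was found for Ccna2, Cdc25c, Wee1 and Pkmyt1. The windows are Ccnb1, chr13:100786437-100786736 (minus strand), Ccnb2, chr9:70421505-70421804 (minus strand), Ccnf, chr17:24251360-24251659 (minus strand), Cdk1, chr10:69352863-69353162 (minus strand), Plk1, chr7:122159185-122159484 (plus strand), Cdc25b, chr2:131186698-131186997 (plus strand). Capitals mark the CHR letters TTTGAA, the related letters TTCGAA and the CCAAT box, each on either strand, so that a CCAAT box on the reverse strand reads ATTGG.
Ccnb1: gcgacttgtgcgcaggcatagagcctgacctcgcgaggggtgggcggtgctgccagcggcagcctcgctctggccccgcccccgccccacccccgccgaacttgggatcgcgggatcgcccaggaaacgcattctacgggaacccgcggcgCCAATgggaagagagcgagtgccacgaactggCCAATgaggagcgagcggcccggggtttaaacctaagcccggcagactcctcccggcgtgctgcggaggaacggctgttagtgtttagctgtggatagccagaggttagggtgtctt
Ccnb2: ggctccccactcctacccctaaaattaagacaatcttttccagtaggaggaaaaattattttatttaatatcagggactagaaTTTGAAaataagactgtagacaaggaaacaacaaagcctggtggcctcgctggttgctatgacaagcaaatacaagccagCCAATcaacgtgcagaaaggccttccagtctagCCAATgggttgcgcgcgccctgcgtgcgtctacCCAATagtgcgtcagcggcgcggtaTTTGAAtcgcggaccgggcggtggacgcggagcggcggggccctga
Ccnf: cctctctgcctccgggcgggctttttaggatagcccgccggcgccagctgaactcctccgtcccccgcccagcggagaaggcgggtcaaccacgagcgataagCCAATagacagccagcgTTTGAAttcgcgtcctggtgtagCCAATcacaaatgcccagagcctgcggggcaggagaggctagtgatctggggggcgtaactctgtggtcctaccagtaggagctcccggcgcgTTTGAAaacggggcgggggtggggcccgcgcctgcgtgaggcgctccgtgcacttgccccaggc
Cdk1: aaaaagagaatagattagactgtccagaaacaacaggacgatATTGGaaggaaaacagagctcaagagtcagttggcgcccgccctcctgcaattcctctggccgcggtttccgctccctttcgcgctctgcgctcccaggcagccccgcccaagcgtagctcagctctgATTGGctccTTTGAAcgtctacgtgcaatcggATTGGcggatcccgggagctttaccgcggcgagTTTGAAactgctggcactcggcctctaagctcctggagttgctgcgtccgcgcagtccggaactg
Plk1: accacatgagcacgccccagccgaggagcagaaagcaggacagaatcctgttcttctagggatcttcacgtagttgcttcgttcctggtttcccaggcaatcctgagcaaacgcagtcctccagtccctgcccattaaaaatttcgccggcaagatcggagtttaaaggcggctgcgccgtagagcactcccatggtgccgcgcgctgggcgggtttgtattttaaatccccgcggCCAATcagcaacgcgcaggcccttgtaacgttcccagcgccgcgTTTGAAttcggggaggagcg
Cdc25b: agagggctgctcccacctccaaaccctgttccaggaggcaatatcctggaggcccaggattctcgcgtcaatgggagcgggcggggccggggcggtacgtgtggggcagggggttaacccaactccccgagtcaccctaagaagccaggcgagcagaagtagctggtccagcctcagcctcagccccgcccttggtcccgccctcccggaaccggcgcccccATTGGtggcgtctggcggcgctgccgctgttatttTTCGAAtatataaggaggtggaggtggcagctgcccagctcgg
A CCAAT box was present in all 6 windows, against 37.4% of 32817 promoter windows of the same length. The letters TTTGAA were present in 4 of the 6 (Ccnb2, Ccnf, Cdk1 and Plk1), against 17.9% of all windows, and these 4 also held a CCAAT box, a combination found in 6.94% of all windows. Counted from the start site as 1, the TTTGAA nearest the start lay from 5 to 10 in Ccnb2, from -14 to -9 in Ccnf, from -15 to -10 in Cdk1 and from 31 to 36 in Plk1. The Cdc25b window held TTCGAA from 8 to 13, letters found in 1.56% of all windows. The Ccnb1 window held neither, and held the palindrome TTTAAA from -42 to -37, which was not put in capitals and occurred in 13.2% of all windows and also in Plk1. An E2F-type match (the letters TTCCCGC, or with other bases TTCGCGC, or else TTGCCGC, or finally TTGGCGC, on either strand) was found in the Cdk1 and Ccnb1 windows and in 9.57% of all windows, and the match in Ccnb1 overlapped its distal CCAAT box. These matches describe letters only.

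The libraries held between 10343907 and 14203098 counts on genes. For Hells itself the normalized counts were 60.8, 68.4 and 83.45 in the TKO libraries and 678, 523 and 395 in the DKO libraries, in replicate order, so each library followed its label. A normalized count is the read count divided by the TMM-scaled library size and brought to the mean library. Rb1 had a log2 fold change of 0.34 and Rbl1 (p107) of 0.13 (adjusted p = 0.0388 and 0.839, edgeR). Rod markers were all higher in TKO retinae (9 of 9, Gnat1 with a log2 fold change of 1.84 and Sag of 1.63), with a summed level of 19050 to 37130 CPM (counts scaled to a common library size) in TKO and 6470 to 12330 in DKO. Microglia markers were called lower for 6 of 8 genes, with a summed level of 90.7 to 163 in TKO and 215 to 303 CPM in DKO (Csf1r -1.03 and C1qb -1.17 on the log2 scale). Lens markers were called higher for 4 of 10 genes, led in abundance by Cryaa (5.98) and Cryba1 (4.84), with a summed level of 42.6 to 283 CPM in TKO and 9.42 to 9.82 in DKO, where TKO replicate 2 was the highest. Of 8 cone markers, 2 were called higher (Opn1sw 1.24 and Arr3 1.14). The summed cone level overlapped between the groups, at 555 to 1435 CPM in TKO and 390 to 634 in DKO. For rods and microglia alike TKO replicate 3 and DKO replicate 3 were the retinae of their group nearest to the other genotype. In bulk RNA, fewer dividing cells and less RNA per dividing cell cannot be told apart, and the part of rods, cones, microglia and lens tissue in the results that follow was not tested.

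The TKO retinae had less of 7 of the 10 mitotic entry transcripts by the criteria for a call and more of 0, where 4.38% of the 16904 genes tested were called lower, 1.97% higher and 6.35% in either direction. To be called, a gene needed an adjusted p no greater than 0.05, a log2 change of 1 or more either way, and 10 or more normalized counts on average. The p criterion alone was met by 8 of the 10 (all but Wee1 and Pkmyt1) and, in the lower direction, by 9.2% of all genes. A fit with the replicate number as a block, which the retinae give no basis for, called 0 of the 10, with adjusted p from 0.0566 (edgeR). The median log2 fold change of the 10 genes was -1.66, against -0.011 over all genes tested. The fitted values of all 10 were below 0, as were those of 51.2% of all genes. In 9 of the 10 genes each TKO retina lay below each DKO retina, a pattern seen in 20.6% of all genes (38.6% had groups that did not overlap in either direction), and Pkmyt1 was the exception. As fitted, DKO over TKO was 7.39-fold for Ccnb1, 6.40-fold for Cdk1, 5.66-fold for Ccnb2 and 4.89-fold for Plk1, and at the other end 1.99-fold for Cdc25b, 1.98-fold for Wee1 and 1.14-fold for Pkmyt1.

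**Figure D1:**
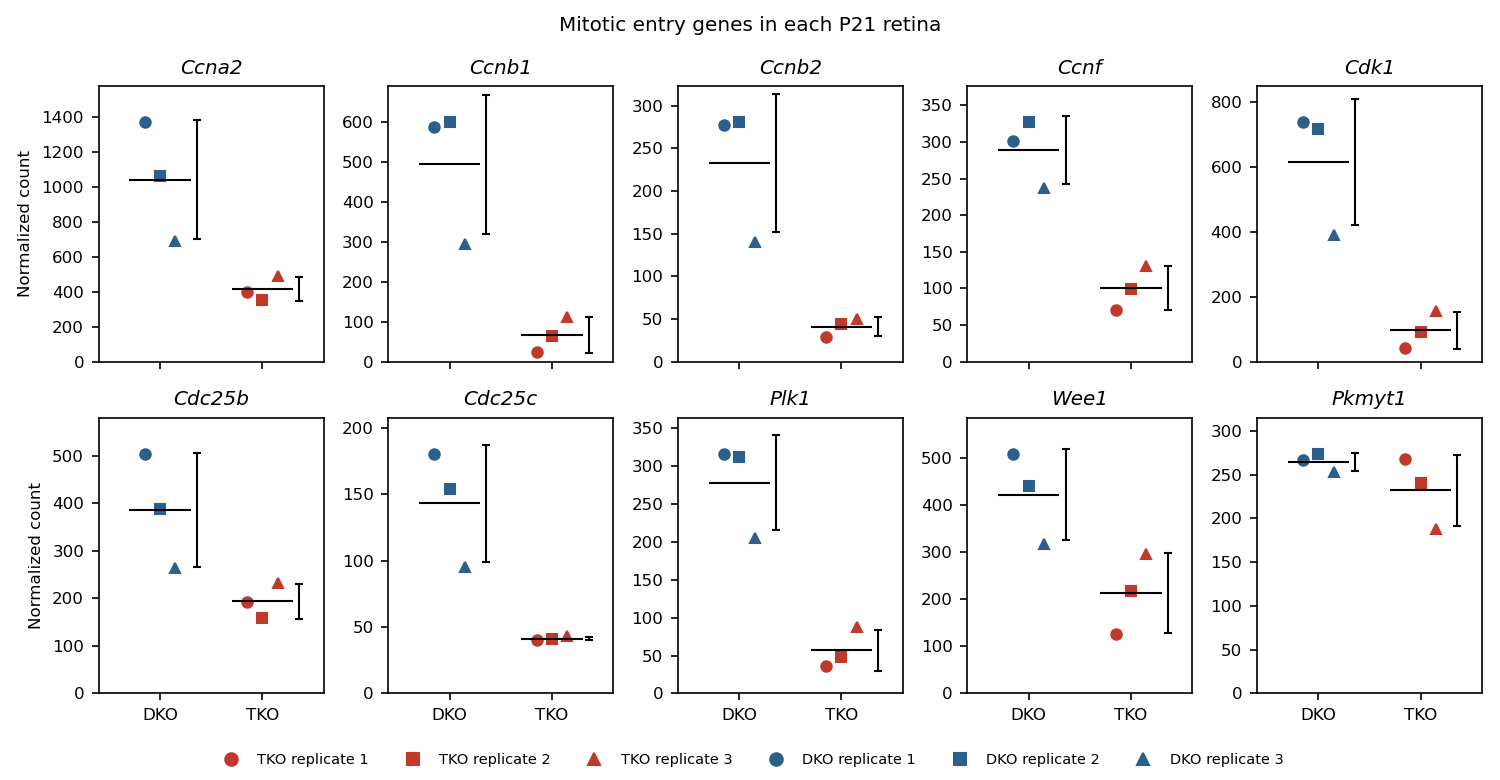
Normalized counts (vertical axes, starting at 0) of the 10 mitotic entry genes in each of 3 DKO (blue) and 3 TKO (red) retinae; the horizontal line is the group mean, the bar is the SD, and circles, squares and triangles are replicates 1, 2 and 3. The groups are separated in every panel except Pkmyt1, and the TKO triangle is the TKO value nearest the DKO retinae in the 9 separated panels.

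Cyclin B1 (Ccnb1, chromosome 13 from 100778650 to 100786570, minus strand), the main activating partner of CDK1 at mitotic entry, showed the greatest change of the 10. The TKO retinae (replicates 1, 2 and 3) held 24.1, 64.2 and 113 normalized counts, and the DKO retinae 587, 599.7 and 294. The lowest DKO retina was thus 2.6-fold above the highest TKO retina, while the TKO retinae differed 4.69-fold among themselves. This was a log2 fold change of -2.89 with a 95% interval from -3.96 to -1.82 and an adjusted p of 0.00846 (edgeR). TKO replicate 1 held only 21 reads of Ccnb1, for which counting error alone gives an exact Poisson interval of 13.0 to 32.1. Ccnb1 has 5 near-identical copies in the annotation (at least 95% identity over at least 100 bp), none of which had a row in the count table, so reads from or lost to these copies make its level less certain.

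Cyclin B2 (Ccnb2, chromosome 9 from 70407692 to 70421547, minus strand), a second cyclin B that sits largely at the Golgi, changed to a like extent. Its normalized counts were 28.7, 44.2 and 50.3 in the TKO retinae and 278, 281 and 139.9 in the DKO retinae, in replicate order. Again DKO replicate 3 was the lowest of its group and the groups were far apart, by 2.78-fold between the nearest retinae. The log2 fold change was -2.50 (95% interval -3.24 to -1.76, adjusted p = 0.00677, edgeR), and Ccnb2 had the smallest adjusted p of the 10 genes.

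Cdk1 (chromosome 10 from 69335146 to 69352938, minus strand) encodes the kinase that drives entry. Cdk1 stood at 42.4, 90.5 and 157 normalized counts in the TKO retinae and 739.7, 717 and 391 in the DKO retinae. On the log2 scale the change was -2.68 (95% interval -3.63 to -1.73, adjusted p = 0.0078, edgeR). As for Ccnb1, TKO replicate 1 was the lowest retina, with a 3.7-fold range among TKO retinae.

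Plk1 (chromosome 7 from 122159439 to 122169873, plus strand) encodes the polo kinase that activates CDC25C. Its normalized counts were 35.55, 48.4 and 87.1 in the TKO retinae and 316, 312 and 205.5 in the DKO retinae. The fitted log2 fold change was -2.29 (95% interval -3.02 to -1.56, adjusted p = 0.00691, edgeR). Gm44985 on the opposite strand shares 7.09% of the exon bases of Plk1, and its part in the value was not tested.

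Cdc25c (chromosome 18 from 34732993 to 34751533, minus strand) is the phosphatase that PLK1 and CDK1 activate at entry. Its level was 40.1, 41.05 and 42.95 normalized counts in the TKO retinae and 181, 154 and 94.97 in the DKO retinae. The TKO retinae were nearly level, with a 1.07-fold range against 1.9-fold among DKO retinae. They held only 35, 39 and 35 reads of Cdc25c, and the exact Poisson interval for 35 reads runs from 24.4 to 48.7. Counting error alone is thus wider than this range, which is not read as a trait of the gene. Cdc25c had a log2 fold change of -1.79 (95% interval -2.39 to -1.19, adjusted p = 0.00733, edgeR). Gm3550 on the opposite strand shares 12.67% of the exon bases of Cdc25c, and its part in the value was not tested. A Cdc25c transcript also matches Fam32a over 105 bp at 95.2% identity, and the part of Fam32a reads was not tested either.

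Cdc25b (chromosome 2 from 131186949 to 131198497, plus strand), the phosphatase that starts CDK1 activation in late G2, was not called. Normalized counts were 191.5, 158 and 232 in the TKO retinae and 504, 389 and 264 in the DKO retinae, so the nearest retinae of the groups were 1.14-fold apart. Its log2 fold change of -0.995 (95% interval -1.55 to -0.44, adjusted p = 0.0274, edgeR) passed the p threshold and lay just short of the minimum fold change. Cdc25b was called with total-count or upper-quartile scaling and without TKO replicate 3 or DKO replicate 3. Its adjusted p rose above 0.05 when any one of the other 4 retinae was left out, to 0.0781 (TKO replicate 1), 0.106 (TKO replicate 2), 0.0908 (DKO replicate 1) and 0.0896 (DKO replicate 2, edgeR).

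Cyclin A2 (Ccna2, chromosome 3 from 36564865 to 36572150, minus strand) bridges S phase and G2 and was the most abundant of the 10 per kb of exons. Its normalized counts were 401, 356 and 493 in the TKO retinae and 1373, 1062 and 692 in the DKO retinae. The groups did not overlap, and the log2 fold change was -1.32 (95% interval -1.86 to -0.78, adjusted p = 0.0108, edgeR). Without TKO replicate 2 the adjusted p of Ccna2 rose to 0.0537. Exosc9 on the opposite strand shares 12.49% of the exon bases of Ccna2, and had a log2 fold change of -0.43. The sources used here do not state whether counting used strand, and what these shared bases add to Ccna2 was not tested.

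Ccnf (chromosome 17 from 24222198 to 24251484, minus strand) encodes cyclin F. Its normalized counts were 71.1, 98.9 and 131 in the TKO retinae and 301, 327 and 237 in the DKO retinae. DKO replicate 3 was the lowest DKO retina here too, as it was for all 10 genes. Ccnf had a log2 fold change of -1.52 (95% interval -2.05 to -1.003, adjusted p = 0.00733, edgeR).

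Wee1 (chromosome 7 from 110122046 to 110143286, plus strand) is the nuclear kinase that restrains CDK1. Its normalized counts were 126, 217 and 296 in the TKO retinae and 509, 439.5 and 318 in the DKO retinae, so TKO replicate 3 and DKO replicate 3 were only 1.07-fold apart. The log2 fold change was -0.989 (95% interval -1.65 to -0.33, adjusted p = 0.0511, edgeR), which did not pass. Wee1 crossed the p threshold with DESeq2 and in several other fits, and its adjusted p ran from 0.00429 to 0.157 over 14 alternatives.

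Pkmyt1 (chromosome 17 from 23726336 to 23736735, plus strand) restrains CDK1 from the endoplasmic reticulum and Golgi. Normalized counts were 268, 240.0 and 188 in the TKO retinae and 266, 274 and 253 in the DKO retinae, and the groups overlapped. Its log2 fold change was -0.19 (95% interval -0.52 to 0.15, adjusted p = 0.409, edgeR), an interval that leaves out a change of the size seen in the other 9 genes as fitted. TKO replicate 3, the highest TKO retina for the other 9 genes, was the lowest for Pkmyt1. Paqr4 on the opposite strand shares 8.76% of the exon bases of Pkmyt1 and had a log2 fold change of 0.72 (adjusted p = 0.0409, edgeR), and its part in the Pkmyt1 value was not tested.

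**Figure D2:**
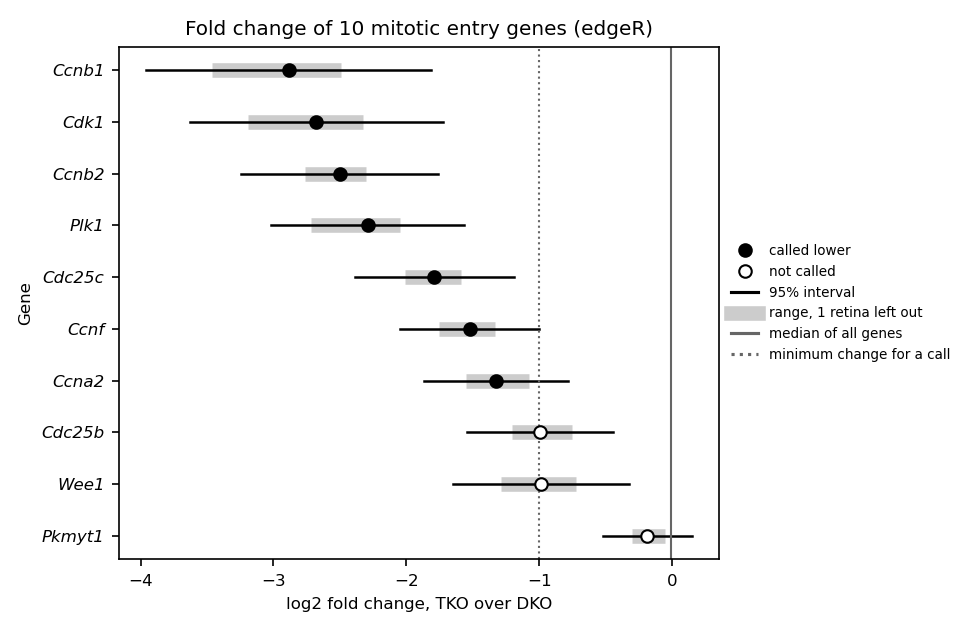
Fitted log2 fold change (TKO over DKO, horizontal axis) of the 10 genes from edgeR with its 95% interval (line) and the range over 6 fits that each leave out 1 retina (grey bar); filled points were called lower, the solid vertical line is the median of all genes and the dotted line the minimum change for a call. The points run from -2.89 for Ccnb1 to -0.19 for Pkmyt1, and Cdc25b and Wee1 sit beside the dotted line.

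Some retinae held the same rank within their genotype for most genes. TKO replicate 3 was the highest TKO retina for 9 genes, TKO replicate 1 was the lowest for 7, and DKO replicate 3 was the lowest DKO retina for 10. The highest DKO retina was DKO replicate 1 for 6 genes and DKO replicate 2 for 4 (Ccnb1, Ccnb2, Ccnf and Pkmyt1). The level summed over the 10 genes was 97.2, 107.3 and 141.5 CPM in TKO replicates 1, 2 and 3, and 399.7, 360.1 and 228.5 in DKO replicates 1, 2 and 3. A list of 8 other genes of dividing cells (Mki67, Top2a, Cenpf, Prc1, Kif11, Kif23, Anln and Bub1) put the retinae in the same order, at 45.8, 78.6 and 177 CPM in TKO and 945, 667 and 427 in DKO. Rod markers ran the other way among TKO retinae, with TKO replicate 1 highest and TKO replicate 3 lowest.

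Levels of different genes were compared per kb of exons, as RPKM on the TMM-scaled libraries. In DKO retinae Ccna2 was at 20.2 ± 6.60 RPKM (SD, n = 3), and Ccnb2, Plk1, Cdk1, Wee1, Ccnb1 and Cdc25b followed, down to 8.18 RPKM. Neighbours in that order overlapped in their range over the 3 retinae. Pkmyt1 came next at 5.74 ± 0.231 RPKM and lay clear of Ccnf (2.93 ± 0.469) below it, and Cdc25c was last at 2.30 ± 0.705 RPKM. This order depends on the length used. Per kb of the longest coding transcript, Ccnb1 made up 13.1% of the summed DKO level of the 10 genes and Ccnb2 10.0%. On that scale Pkmyt1 (9.15%) stood above Plk1 (8.56%), and Cdc25c (4.91%) above Ccnf (4.81%).

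In TKO retinae the order changed. Ccna2 stayed first at 8.07 ± 1.36 RPKM, and Pkmyt1, Wee1 and Cdc25b now followed at 5.04, 4.92 and 4.11 RPKM, ahead of Ccnb2 (2.12), Plk1 (2.05), Cdk1 (1.55) and Ccnb1 (1.26). The ranges of Cdc25b and Ccnb2, neighbours in this order, did not overlap. Ccnf and Cdc25c were again the lowest, at 1.02 and 0.665 RPKM. Per kb of the longest coding transcript, Cdk1 (4.01% of the summed TKO level) was instead below Cdc25c (4.10%) and Ccnf (4.55%). Seen as a share of the summed level of the 10 genes, Ccnb1 made up 10.1% ± 1.24 in DKO and 3.84% ± 1.95 in TKO (SD, n = 3 each). Cdk1 went from 10.8% ± 0.752 to 4.78% ± 2.03, while Pkmyt1 went from 6.70% ± 1.88 to 17.1% ± 5.94 and Cdc25b from 9.04% ± 0.735 to 13.5% ± 2.08. The groups did not overlap for these 4 shares, nor for those of Ccnb2 and Plk1, which were lower in TKO. Each share is a part of the same sum, so a gene that fell less than the rest gains share. The shares thus restate the fold changes, and as fitted neither Pkmyt1 (log2 fold change -0.187) nor Cdc25b (-0.995) rose in TKO. The share of Ccnf was 3.34% ± 0.54 in DKO and 3.27% ± 0.412 in TKO.

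**Figure D3:**
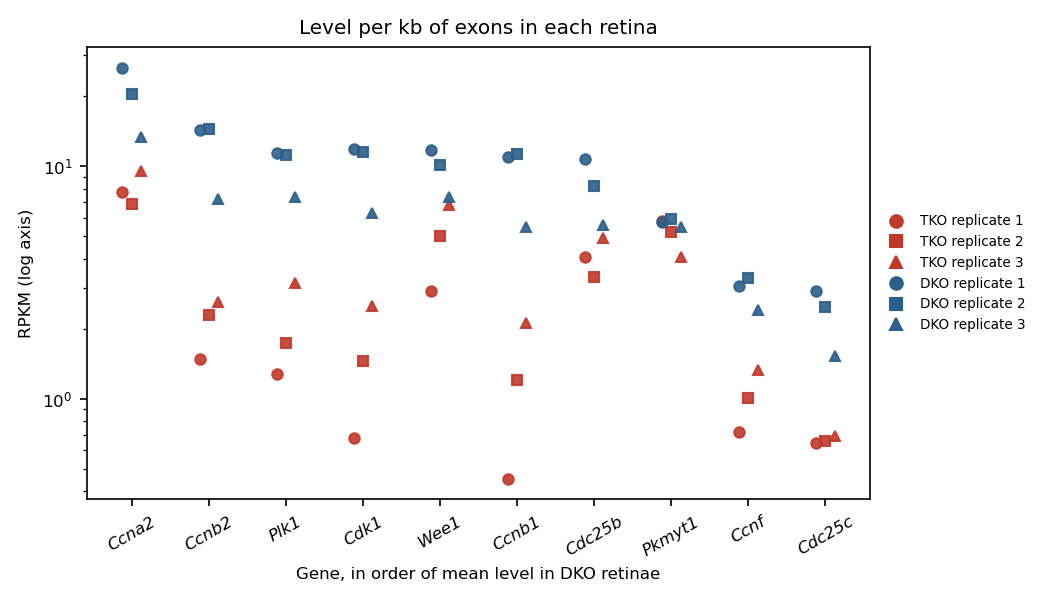
Level per kb of exons (RPKM, log axis) of each gene in each retina, with genes ordered by their DKO mean and symbols for replicates 1, 2 and 3 of DKO (blue) and TKO (red). Ccna2 is highest in both groups, and Wee1, Cdc25b and Pkmyt1 stand above Ccnb1, Ccnb2, Cdk1 and Plk1 in TKO by mean level.

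The members were then set beside the other genes of dividing cells in the same library, which asks how much of each transcript was present per unit of that signal. Ccnb1 stood at 8.66%, 13.75% and 10.6% of the summed level per kb of the 8 dividing-cell genes in TKO replicates 1, 2 and 3, and at 10.5%, 14.9% and 11.5% in DKO replicates 1, 2 and 3. Cdk1 stood at 13.0%, 16.6% and 12.65% in TKO and 11.3%, 15.2% and 13.1% in DKO. For both genes, and for Ccnb2, the groups overlapped, with TKO minus DKO differences of -0.17, 0.095 and 0.43 on the log2 scale (exact permutation p = 0.5, 0.7 and 0.4, two-sided). The other 7 genes were higher relative to the dividing-cell genes in each TKO retina than in any DKO retina. These 7 differences ran from 0.54 for Plk1 to 2.70 for Pkmyt1 on the log2 scale, with Wee1 at 1.86, Cdc25b at 1.94 and Ccna2 at 1.62. The exact permutation test gave p = 0.1 for each, the smallest p that 3 retinae against 3 allow, and 0.143 after adjustment over the 10 genes, so none could pass 0.05. The dividing-cell genes had a median log2 fold change of -2.60, so any gene that fell less tends to lie higher in TKO on this scale. The share of all genes with this pattern was not computed.

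The choice of reference genes changed this picture. Set against 7 S-phase genes (Mcm2 to Mcm7 and Pcna), whose own median log2 fold change was -1.59 against -2.60 for the dividing-cell genes, Ccnb1, Ccnb2, Cdk1 and Plk1 were lower in each TKO retina, by -1.55, -0.955, -1.29 and -0.842 on the log2 scale. Wee1, Cdc25b and Pkmyt1 remained above, by 0.472, 0.556 and 1.31, and Ccna2, Ccnf and Cdc25c overlapped. Against either reference Wee1, Cdc25b and Pkmyt1 were higher in each TKO retina, and Ccnb1, Ccnb2 and Cdk1 were not. Wee1, Cdc25b and Pkmyt1 had the smallest fold changes of the 10 genes (-0.989, -0.995 and -0.187 on the log2 scale). Both references fell more than that, so this result restates those fold changes and adds no separate evidence. In the same way Ccnb1, Ccnb2, Cdk1 and Plk1 (-2.89, -2.50, -2.68 and -2.29) fell more than the S-phase median. Their lower place against the S-phase genes restates that too. The share of all genes that separate on the S-phase scale was not computed.

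**Figure D4:**
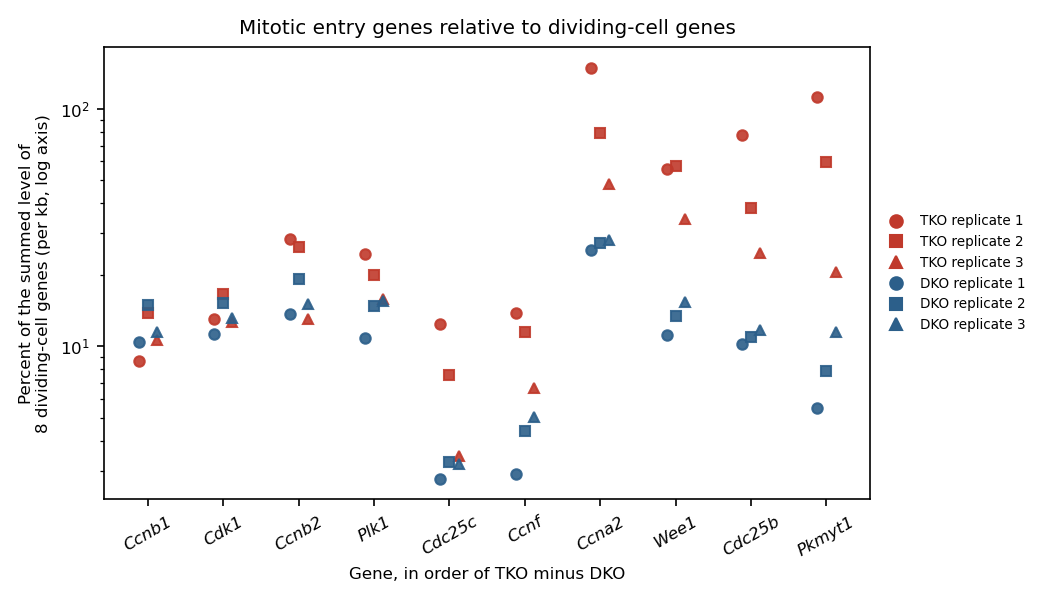
Level per kb of each gene as a percent of the summed level per kb of 8 dividing-cell genes (log axis) in each retina, ordered by the TKO minus DKO difference; red is TKO, blue is DKO, and symbols are replicates. Ccnb1, Cdk1 and Ccnb2 overlap between the groups, and the TKO retinae lie above the DKO retinae for the other 7 genes, with TKO replicate 3 nearest the DKO values for most of them.

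Ratios within the list, chosen after the counts had been seen, set the RNA of genes that restrain entry beside that of genes that drive it. How much of this RNA came from dividing cells was not tested. The summed level per kb of Wee1 and Pkmyt1 was 12.9, 7.05 and 4.34 times that of Cdk1 in TKO replicates 1, 2 and 3, and 1.48, 1.4 and 2.05 times in DKO replicates 1, 2 and 3. Against the summed level of Cdc25b and Cdc25c, the same kinases stood at 1.86, 2.55 and 1.95 in TKO and 1.29, 1.5 and 1.8 in DKO. Each of these ratios was higher in every TKO retina than in any DKO retina, with the second pair of groups nearly touching. Wee1 and Pkmyt1 were not called and Cdk1 was (log2 fold change -2.68), so the ratio to Cdk1 largely restates the fall of Cdk1.

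The 2 cyclins B kept a near-constant ratio in DKO retinae, with Ccnb1 at 0.768, 0.775 and 0.762 times Ccnb2. In TKO retinae it was 0.305, 0.527 and 0.815, a range that took in the DKO values. Which of the 2 is the more abundant depends on the length used and on the copies of Ccnb1. Per kb of the longest coding transcript, the mean DKO share was 13.1% for Ccnb1 and 10.0% for Ccnb2. Together, per kb of exons, Ccnb1 and Ccnb2 stood at 0.949 to 1.25 times Ccna2 in DKO and 0.249 to 0.506 times in TKO, with no overlap. Cdc25b was 3.33 to 3.68 times Cdc25c in DKO and 5.07 to 7.13 times in TKO, again with no overlap. Over the 6 ratios computed the exact permutation p was 0.1 at the least. These are ratios of RNA levels in whole retina, and the protein or its phosphorylation was not measured here.

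Other genes around mitotic entry were read from the same fit, in 8 lists with 63 distinct genes tested, of which 36 were called lower and 1 higher. Over all genes tested, 4.38% were called lower and 1.97% higher. The lists were chosen with earlier results of these data known, so the counts by list are a description. The lists of dividing-cell genes (8 of 8) and S-phase genes (7 of 7) were called lower in the reported fit. Top2a, the topoisomerase that untangles sister chromatids, and Mki67, the proliferation antigen, had log2 fold changes of -3.21 and -2.52, Prc1 and Kif11 of the spindle had -2.82 and -2.59, and Mcm6, Mcm3 and Pcna of the replication fork had -2.12, -1.91 and -1.27. The call on Mki67 was lost with robust dispersion (adjusted p = 0.0698, edgeR) and without DKO replicate 1 (0.0569), DKO replicate 2 (0.0524) or TKO replicate 2 (0.0719), and that on Mcm6 without TKO replicate 2 (0.0545).

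Of 9 partners and activators of CDK1, 4 were called lower. Cks2 and Cks1b, small subunits that bind CDK1, had log2 fold changes of -2.75 and -2.03 (adjusted p = 0.00691 and 0.01003, edgeR). The call on Cks1b was lost without TKO replicate 2 (adjusted p = 0.052, edgeR). Cdk2 and Cdc25a were also called lower. The 3 genes of the CDK-activating kinase, Cdk7, Ccnh and Mnat1, were not called, with values of 0.054, 0.065 and 0.067, and their direction turned under total-count scaling for Cdk7 and Ccnh. Ccnb3 had 0, 4 and 10 counts in the TKO libraries and 0 in each DKO library, too few for a fold change.

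Of 11 genes of the Greatwall and PP2A-B55 pathway, 1 was called lower and 1 higher. Mastl, the Greatwall kinase itself, stood at 42.4, 33.7 and 55.2 normalized counts in the TKO retinae and 155, 115 and 84.6 in the DKO retinae, a log2 change of -1.44 (adjusted p = 0.0144, edgeR). The B55 subunit Ppp2r2b, which is abundant in neurons, was called higher at 1.02 (adjusted p = 0.0168, edgeR). The scaffold Ppp2r1a (0.028) and the catalytic subunit Ppp2ca (-0.12) were not called. The call on Mastl and the one on Ppp2r2b were each lost without TKO replicate 2, DKO replicate 1 or DKO replicate 2, and that on Ppp2r2b also without TKO replicate 1. Ppp2r2b fell short of the minimum change as well with total counts only (0.863) and upper-quartile scaling (0.99).

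Of 6 genes of the polo kinases and Aurora A, 4 were called lower. Tpx2 and Aurka, the activator of Aurora A and the kinase that activates PLK1, had log2 fold changes of -2.59 and -2.08 (adjusted p = 0.00733 and 0.0078, edgeR), and Bora, their co-activator, and Plk4 were called as well. Plk2 and Plk3, stress-response polo kinases, were not called at -0.24 and -0.54.

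Of 6 tested genes of the G2 checkpoint and its inhibitors, 4 were called lower. Gtse1, which restrains p53 in G2, and Cdkn1a, the CDK inhibitor p21, had log2 fold changes of -2.28 and -1.45 (adjusted p = 0.00821 and 0.0112, edgeR). The checkpoint kinases Chek1 and Chek2 were called lower too, and Atr (0.006) was not. Cdkn1a restrains the cell cycle and moved the same way as the genes that drive it, at 157, 262 and 358 normalized counts in the TKO retinae and 786, 749 and 579 in the DKO retinae, and its call was lost without TKO replicate 2, DKO replicate 1 or DKO replicate 2.

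Of 7 genes around the turnover of mitotic cyclins, which do not all promote it, 3 were called lower (Cdc20, Ube2c and Fbxo5). Cdc20, the activator of the anaphase-promoting complex in mitosis, had the greatest change there, at -2.93 on the log2 scale (adjusted p = 0.00898, edgeR), and Ube2s, an E2 enzyme of the complex, had -0.82 (adjusted p = 0.00752, edgeR) and fell short of the minimum change. Btrc and Fbxw11, the F-box proteins that direct the destruction of WEE1, were not called at 0.25 and -0.065. Of 9 genes of the cyclin F ligase and its substrates, 5 were called lower, all of them substrates, with Exo1 at -2.46 and Slbp at -1.19. The ligase subunits Skp1a (-0.098), Cul1 (-0.11) and Rbx1 (0.134) were not called, and neither was the substrate Ccp110 (-0.297).

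**Figure D5:**
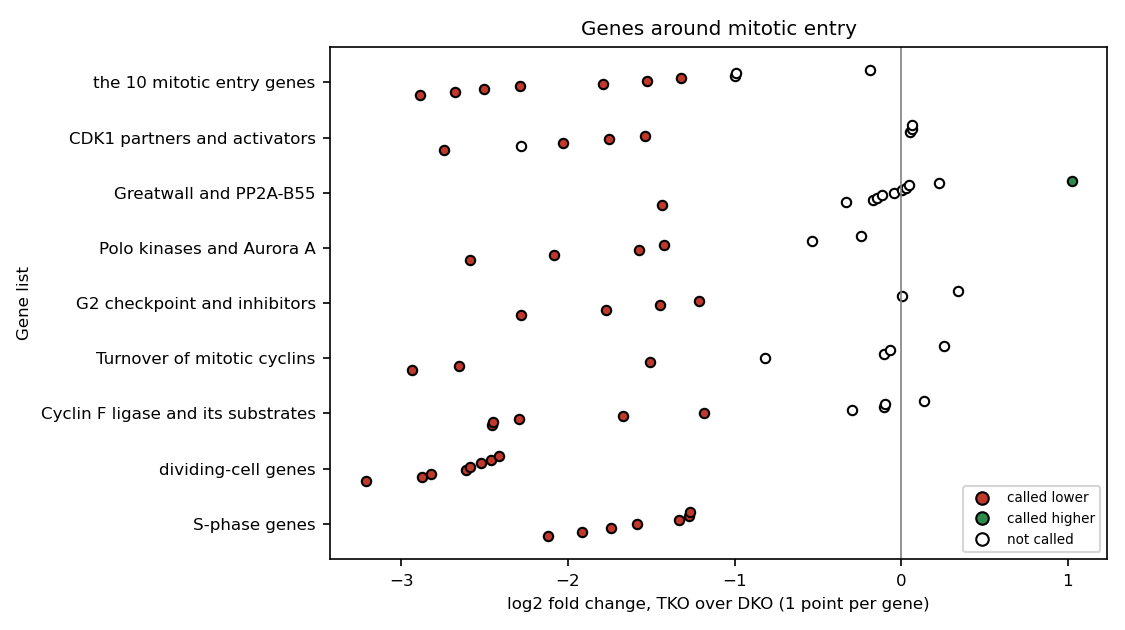
Fitted log2 fold change (TKO over DKO, horizontal axis) of each gene of the 10 mitotic entry genes and of 8 lists around them, 1 point per gene; red points were called lower, the green point higher and open points were not called. Ccnb3, with no counts in DKO libraries, is left out. The dividing-cell and S-phase lists lie wholly below -1, while the Greatwall and PP2A-B55 list clusters at 0 apart from Mastl and Ppp2r2b.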

How the data were processed

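One RNA-seq library was made from each of 3 TKO and 3 DKO retinae. The authors deposited raw read counts per gene symbol, not normalized. The study's methods name STAR and HTSeq on GRCm38, while the submitters' processing notes list TopHat2, featureCounts and DESeq2 with no role, so the counter is uncertain. Up to 3 alignments per read were allowed. The strand setting is not given in the sources used here.

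Genes with a summed count under 10 were removed. The 16904 others were compared with edgeR 4.0.16 in R 4.3.3 (TMM, quasi-likelihood F test, Benjamini-Hochberg adjustment over all of them), and the 3 criteria for a call follow the study, which used DESeq2. Intervals come from the fold change, its F statistic and the fit's degrees of freedom. No pair of replicates looked like a repeated library (chi-square of their counts, per degree of freedom, 8.97 to 26.6). Counting intervals cover counting error only. Exon lengths and positions come from GENCODE vM21 (GRCm38), where 22758 of 24062 symbols matched. Ratios were compared by exact two-sided permutation. In data simulated for this comparison from the kept genes, with 200 changed and 16550 unchanged genes left after the same filter on the simulated counts, 97 of 100 genes changed 4-fold and 79 of 100 changed 2-fold were called by adjusted p in the right direction. Among the unchanged genes, 19 of 16550 were called. The minimum fold change was not applied in the simulation, so these numbers are not rates for calls by all 3 criteria. The 200 genes were changed equally up and down, where the data gave 1074 calls, most of them lower.

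The members and lists were chosen with earlier results of these data known. Genes named are Hells, Rb1, Rbl1, the members and, of each list, the 2 most abundant genes and the 2 with the smallest adjusted p. The 5 genes most like the members in pattern were named too. So were the 2 most abundant genes of the rod, cone, microglia and lens marker lists. Most genes were called in the rod and microglia lists, but only 2 of 8 in the cone and 4 of 10 in the lens list. The other genes printed were chosen after their values were seen. Of 11 marker lists, rod, cone, bipolar, amacrine, horizontal, ganglion, Muller glia, microglia, endothelium, lens and RPE, calls (higher, lower) were 9 and 0, 2 and 0, 0 and 0, 0 and 0, 0 and 0, 0 and 0, 1 and 1, 0 and 6, 0 and 0, 4 and 0, and 1 and 0. One marker gene is not reported here and was left out of its list. Alternatives were DESeq2, other scalings and filters, robust dispersion, a replicate block, each retina left out, other thresholds, other reference genes and other lengths.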

Additional observations from a re-analysis of the deposited data

How the results depend on the processing

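The 10 mitotic entry genes kept a log2 fold change below 0 in all 14 alternatives. Of them, 7 were called lower in the reported fit, 9 with total counts only or upper-quartile scaling, 8 without a minimum fold change, 6 at an adjusted p of at most 0.01, and 6 to 9 with 1 retina left out. Of the pathway genes, 36 were called lower, 14 at an adjusted p of at most 0.01, and 14 to 36 with 1 retina left out (14 without TKO replicate 2, 20 without DKO replicate 2, 21 without DKO replicate 1). Over all genes 1074 were called, 2721 without a minimum fold change, 421 at an adjusted p of at most 0.01, and 471 to 1500 with 1 retina left out. Total counts only moved the median of all genes from -0.011 to -0.17 and gave 247 higher and 983 lower genes, against 333 and 741.

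With the replicate number as a block, edgeR called 90 genes in all, 0 of the 10 mitotic entry genes and 0 of the pathway genes, whose numbers at an unadjusted p under 0.05 were 9 and 45 (DESeq2 without the block called 7 and 36). The smallest adjusted p of the 10 was then 0.0566 and their log2 fold changes ran from -2.93 (Ccnb1) to -0.201 (Pkmyt1). Same-numbered retinae correlated at 0.067, -0.049 and -0.199 in their deviations from the group means across genes, and not every retina correlated best with its own number, so pairing by number has no basis here.

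Genes near 0 changed sign. With total counts only Rbl1 was at -0.036, Cdk7 at -0.105, Ccnh at -0.095, Ppp2r1a at -0.129 and Atr at -0.157, and with upper-quartile scaling Ppp2r1a was at -0.005 and Atr at -0.027. With 1 retina left out Rbl1 ran from -0.146 (without TKO replicate 1) to 0.36 (without DKO replicate 3) and was -0.002 without DKO replicate 1, Ppp2r1a ran up to 0.063 (without DKO replicate 2) and was -0.023 without DKO replicate 1 and -0.003 without TKO replicate 2, and Atr ran up to 0.166 (without DKO replicate 1) and was -0.071, -0.065 and -0.149 without DKO replicate 2, DKO replicate 3 and TKO replicate 1. With S-phase genes as the reference, the differences of Ccnf, Cdc25c and Plk1 turned to -0.037, -0.224 and -0.842, Ccna2 came to 0.237, Ccnb1 to -1.55, Ccnb2 to -0.955, Cdk1 to -1.29, Cdc25b to 0.556, Wee1 to 0.472 and Pkmyt1 to 1.31. Shares computed without length, or with the longest coding transcript (chosen after seeing the data), kept the direction of each of the 10 genes, moved by more than 1 SD for Ccnb1, Ccnb2, Cdk1, Cdc25c and Plk1 in one or the other, and separated the groups for Cdc25c (-0.519 and -0.809 percentage points). Depth limits Ccnb1 in TKO replicate 1 most, at 21 reads.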

Other observations

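Among genes outside the 10 with a mean normalized count of at least 100, the 5 whose log2 CPM over the 6 retinae were most like the mean standardized level of the 10 were Dbf4, Tmem255a, Nhlh1, Tle1 and Ect2, with Pearson r from 0.9987 to 0.9994. The 6 retinae fall into 2 genotypes, so r mostly reads the distance between them, and it is given as a description. Dbf4, the activator of the CDC7 kinase that fires replication origins, had 29.8, 41.05 and 56.45 normalized counts in TKO and 294, 260.0 and 133 in DKO replicates 1, 2 and 3 (log2 fold change -2.43, adjusted p = 0.00700, edgeR). Ect2, the exchange factor that starts cytokinesis, had 66.5, 77.9 and 112 in TKO and 554, 498 and 284 in DKO (log2 fold change -2.39). Nhlh1, a transcription factor of newly born neurons, had 64.2, 77.9 and 93.3 in TKO and 254, 227 and 161 in DKO (log2 fold change -1.45, adjusted p = 0.00752, edgeR). Tmem255a and the corepressor Tle1 had log2 fold changes of -0.926 and -0.675, short of the minimum change, with adjusted p = 0.00821 for each (edgeR). In each of the 5 genes TKO replicate 1 was the lowest and TKO replicate 3 the highest TKO retina. The mean standardized level by which they were picked has the same order, at -1.018, -0.802 and -0.554 in TKO replicates 1, 2 and 3. This order thus follows from the choice and is no separate result.

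Within the list, the correlation with the mean standardized level of the 10 genes over the 6 retinae, which includes each gene itself, was at least 0.914 for 9 genes and 0.433 for Pkmyt1.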
